A study of Homo sapiens with 8 samples.

Results

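ER sites at the promoters of protein-coding genes were examined in LY2 cells. A promoter site was an ER binding site whose summit, the base of highest signal, lay within 1 kb of the start of a protein-coding gene. The peaks of the 4 ER ChIP-seq libraries were joined into sites wherever they shared 1 bp or more, and 161 of the 25365 sites met this definition. LY2 is a breast cancer cell line that expresses the estrogen receptor (ER) and is resistant to endocrine therapy. All cells were serum depleted and kept without 4-hydroxytamoxifen (4-OHT), transfected with siRNA for 48 h, and then exposed for 1 h to β-estradiol at 1 µmol/L. Control cells received siCtrl (replicates 2 and 3) and knockdown cells received siCDK12, an siRNA against CDK12 (replicates 3 and 4), so that both conditions share the estradiol treatment and none of these samples was free of estradiol. The peak lists hold no expression values, so neither the depth of the CDK12 knockdown nor the identity of the line could be checked here. Nothing in the labels says that the 2 libraries of a condition came from separate cultures, and any p-value therefore measures the spread between these libraries.

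ER is a ligand-activated nuclear receptor. On estradiol it binds, mostly as a dimer, to the estrogen response element, an inverted repeat of GGTCA with a 3 base spacer, and recruits coactivators such as the Mediator subunit MED1. In breast cancer cells most ER binding lies in distal enhancers occupied with FOXA1, and a small part lies at promoters, where Mediator and RNA polymerase II assemble. CDK12 is a kinase that phosphorylates the carboxy-terminal domain of RNA polymerase II and is known for its role in transcription elongation and in the expression of DNA repair genes.

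A peak was kept when its q-value was under 0.05, and the 4 libraries then gave 12017 and 4952 sites (siCtrl replicates 2 and 3) and 4819 and 5222 sites (siCDK12 replicates 3 and 4). siCtrl replicate 2 stands apart with the longest list. The background pileup over the whole genome lay between 1.01 and 1.23 fragments in the 4 libraries. Read depth is unknown, the values are not scaled between libraries, and the absence of a peak is not an absence of ER. Strength is given by 3 measures of each peak: the fold over the local background, the pileup (the number of fragments over the summit) and the −log10 q. With 2 libraries a condition, the two-sided exact permutation test over libraries cannot give a p under 0.333.

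Sites that held the element described above and were bound in both siCtrl libraries are shown first. Of the 161 promoter sites, 9 held an estrogen response element no more than 100 bp from the summit, allowing 1 mismatch over the 10 fixed bases, and 7 of these had a peak in both siCtrl libraries. Of these 7, 6 are printed on the + strand of GRCh38 with the 13 bases of the element in capitals, and substitutions are counted from 1 at the first base of the element, with the consensus base first. MANEAL had no mismatch. ADAMTSL5 carried A5C, HSPB8 A5T, RPS6KL1 T3G, BRI3BP A11C and CFAP99 A5G. The spacer bases were free.
ADAMTSL5 (chr19:1513204-1513264): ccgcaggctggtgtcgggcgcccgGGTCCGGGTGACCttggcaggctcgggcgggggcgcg
HSPB8 (chr12:119171403-119171463): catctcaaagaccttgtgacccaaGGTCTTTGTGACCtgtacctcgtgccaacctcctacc
RPS6KL1 (chr14:74922524-74922584): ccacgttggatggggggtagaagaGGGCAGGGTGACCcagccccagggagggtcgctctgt
MANEAL (chr1:37793465-37793525): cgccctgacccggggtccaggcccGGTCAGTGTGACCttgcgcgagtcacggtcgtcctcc
BRI3BP (chr12:124994003-124994063): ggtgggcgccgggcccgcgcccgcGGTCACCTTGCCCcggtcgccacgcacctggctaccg
CFAP99 (chr4:2419475-2419535): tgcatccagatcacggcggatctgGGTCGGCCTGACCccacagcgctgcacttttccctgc

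The promoters of PDZK1, ABCA3 and SERPINA1, from a list of estrogen-induced genes, are shown for contrast, since they were bound in both siCtrl libraries with a poorer match. Their closest match to the element had 2 mismatches. These were T3A and A5T at PDZK1, A5G and G10C at ABCA3, and G1A and A11C at SERPINA1.
PDZK1 (chr1:145708318-145708378): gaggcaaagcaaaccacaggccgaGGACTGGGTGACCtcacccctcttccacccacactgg
ABCA3 (chr16:2341600-2341660): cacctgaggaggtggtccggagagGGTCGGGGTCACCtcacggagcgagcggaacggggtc
SERPINA1 (chr14:94390875-94390935): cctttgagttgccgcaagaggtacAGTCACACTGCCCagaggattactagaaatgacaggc

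Promoter sites were fewer with siCDK12 than with siCtrl in every library. siCtrl replicate 2 had 82, siCtrl replicate 3 had 49, and each siCDK12 library had 30. The ratio of the mean numbers, siCDK12 over siCtrl, was 0.458, and the groups did not overlap (two-sided exact permutation p = 0.333, n = 2 libraries a condition). Because siCtrl replicate 2 had the most sites of any kind, the share of a library's own sites was compared as well. Promoter sites made up 0.682% of the sites of siCtrl replicate 2 (exact 95% binomial interval 0.543 to 0.846) and 0.989% of those of siCtrl replicate 3 (0.733 to 1.31). They made up 0.623% in siCDK12 replicate 3 (0.420 to 0.888) and 0.574% in siCDK12 replicate 4 (0.388 to 0.819). The mean share was 0.599% with siCDK12 and 0.836% with siCtrl, a difference of -0.237 percentage points, with the intervals of siCtrl replicate 2 and both siCDK12 libraries overlapping (two-sided exact permutation p = 0.333). The difference was -0.0837 points without siCtrl replicate 3 and -0.391 points without siCtrl replicate 2. The windows within 1 kb of the 19970 gene starts cover 1.26% of the sequenced genome, a larger share than that of any library's sites, although the interval of siCtrl replicate 3 includes it. Intervals cover counting error only.

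**Figure D1:**
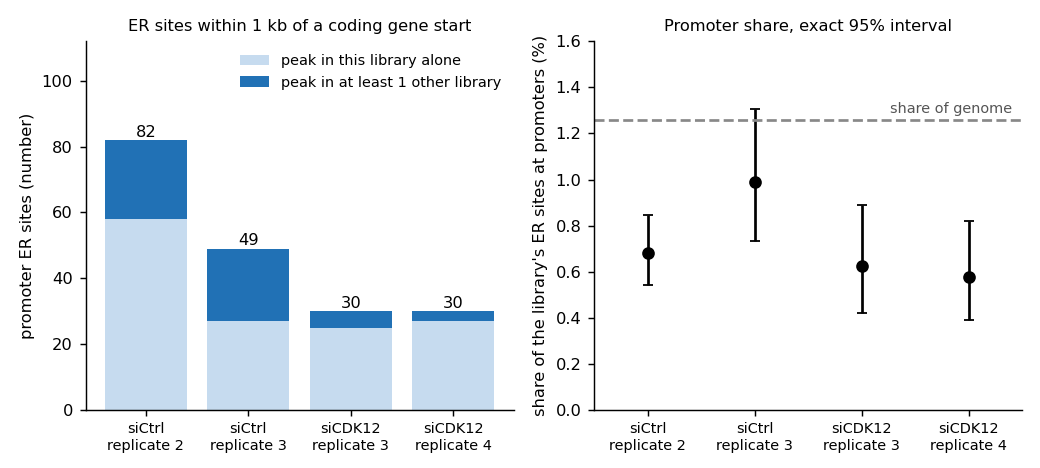
Left, number of promoter ER sites in each library, split into sites with a peak in that library alone (58, 27, 25 and 27) and sites shared with at least 1 other library. Right, share of a library's ER sites at promoters in percent, with exact 95% binomial intervals and a dashed line at the 1.26% of the genome that promoters cover. The siCtrl libraries hold more promoter sites, while the shares lie closer together.

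Among the strongest ER sites of a library, promoters were more frequent with siCtrl than with siCDK12. In siCtrl replicate 2, 7 of its 100 strongest sites by −log10 q were at promoters, and in siCtrl replicate 3 it was 5. In siCDK12 replicate 3 it was 1, and in siCDK12 replicate 4 it was 0, for which the exact 95% interval reaches 3.62% (where a limit is printed for a share of 0, it is of this kind). Among the strongest 300 sites the shares were 5.33% and 4.67% with siCtrl and 0.333% and 0.667% with siCDK12. The siCtrl intervals (3.08 to 8.52 and 2.57 to 7.71) lay wholly above those of siCDK12 (0.00844 to 1.84 and 0.0808 to 2.39). They cover counting error of sites and not the spread between libraries. The sets are also not of like strength. The −log10 q was 11.5 at rank 303 of siCtrl replicate 2 and 7.41 at rank 294 of siCtrl replicate 3. It was 3.84 at rank 286 of siCDK12 replicate 4. Among the strongest 1000 the shares were 2.5% and 1.9% against 0.7% and 0.5%. Fewer cells with ER at a promoter and less ER on each cannot be told apart in bulk cells. Read depth is unknown, and its part in these shares was not tested.

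**Figure D2:**
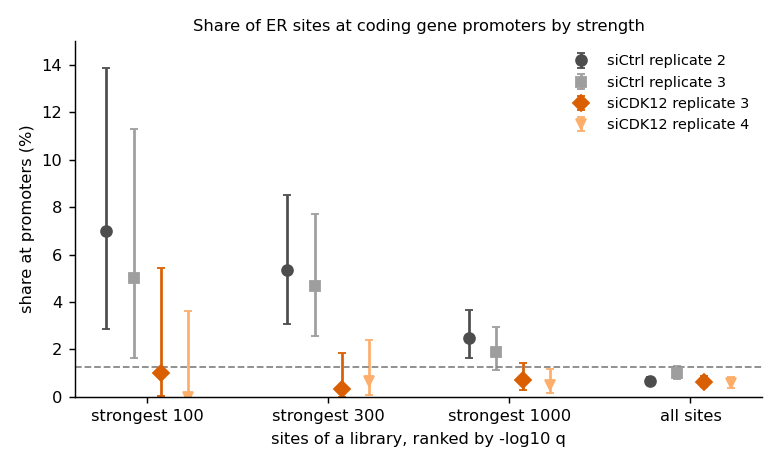
Share of ER sites at coding gene promoters, in percent, among the strongest 100, 300 and 1000 sites of each library by −log10 q and among all sites. Points are libraries, bars exact 95% binomial intervals, and the dashed line is the promoter share of the genome. Both siCtrl libraries lie above the line among the strongest sites and the siCDK12 libraries do not.

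The strongest promoter peaks were also found with siCtrl. A −log10 q of at least 5 was reached by 24 and 15 promoter sites in the siCtrl libraries, by 1 in siCDK12 replicate 3 and by 0 of 30 in siCDK12 replicate 4, which allows up to 11.6%. Away from promoters it was also reached by fewer sites with siCDK12 (129 and 109) than with siCtrl (784 and 453). For promoter sites the other measures were as follows. The highest fold was 26.4 and 16.9 with siCtrl and 5.38 and 6.35 with siCDK12. The median fold lay closer together, at 4.45 and 4.60 against 4.04 and 4.08. Promoter sites were ranked among all deposited peaks of their library, including those with q above 0.05, where 100 is the strongest. Their median stood at the 64.2 and 74.1 percentile with siCtrl and at 62.7 and 50.4 with siCDK12. The median of the other sites was 60.7 and 66.6 with siCtrl and 62.7 and 66.8 with siCDK12. At promoter sites the mean difference was -12.5 percentile points (two-sided exact permutation p = 0.333). The groups did not overlap, although siCDK12 replicate 3 was close to siCtrl replicate 2. The size rested on single libraries, with -6.40 without siCDK12 replicate 4, -7.57 without siCtrl replicate 3 and -18.7 without siCDK12 replicate 3, and it was -25.3 with equal peak numbers.

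Few promoter sites recurred between libraries, and those that did were mainly those of the 2 siCtrl libraries. Of the 161 sites, 137 (85.1%) had a peak in 1 library alone and 24 (14.9%) in 2 or more, where 5.15% of all sites recurred in this way and 5.09% of the sites away from promoters. The siCtrl libraries shared 22 promoter sites, which was 26.8% of those of replicate 2 and 44.9% of those of replicate 3. The siCDK12 libraries shared 1, which was 3.33% of each. Away from promoters the siCDK12 pair also shared fewer sites (212) than the siCtrl pair (645). The 1 promoter site was 0.469% of all 213 sites that the siCDK12 pair shared (interval 0.0119 to 2.59). This interval contains the promoter share of all sites in either siCDK12 library (0.623% and 0.574%). Promoter sites shared between conditions numbered 3 to 5 for each pair of libraries. Of all sites with a peak in both siCtrl libraries, 3.30% were at promoters (22 of 667, interval 2.08 to 4.95), compared with 0.569% of sites in 1 library.

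Of the 22 promoter sites with a peak in both siCtrl libraries, 17 had none in either siCDK12 library. These 17 are called lost, and they make up 77.3% of the 22 (interval 54.6 to 92.2). The background is high: 68.2% of all sites with a peak in both siCtrl libraries were lost (455 of 667), and 67.9% of those away from promoters (438 of 645), and the interval at promoters contains both of these shares. Lost sites were 10.6% of the promoter sites, against 1.79% of all sites. The mirror case, a peak in both siCDK12 libraries and neither siCtrl library, occurred at 87 sites (0.343% of all sites) and at 0 promoter sites, which allows a promoter share of up to 4.15% of them. Each library was also held to the same number of strongest peaks, which takes away the greater length of the siCtrl replicate 2 list. Of 21 promoter sites 16 were then lost (76.2%, against 66.1% of the other sites) and 0 were gained. The count depends on the definition of a promoter. Within 500 bp of the gene start 9 of 13 were lost (69.2%, against 68.2% of the other sites). Within 1 kb of the start of any transcript 37 of 59 were lost (62.7%, against 68.8%) and 2 were gained. The count also depends on each library. Leaving out siCtrl replicate 2 or siCtrl replicate 3 gave 44 and 75 lost sites (89.8% and 91.5%, against 92.1% and 95.2% of the other sites). Leaving out siCDK12 replicate 3 or siCDK12 replicate 4 gave 27 and 25 gained sites.

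**Figure D3:**
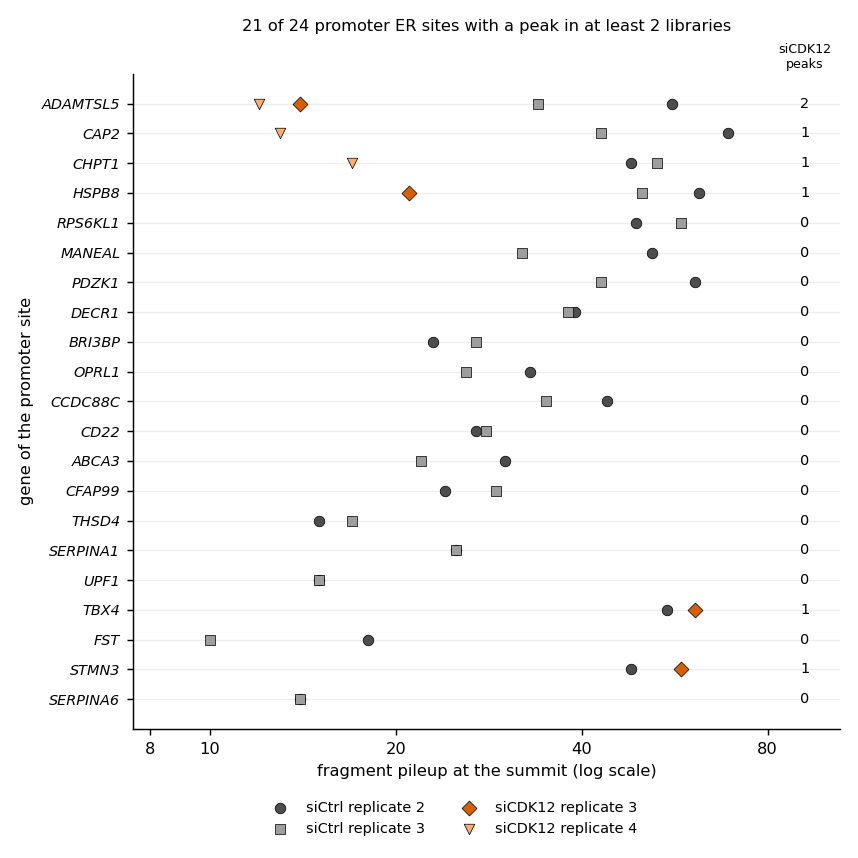
Pileup (fragments over the summit, log axis) at 21 of the 24 promoter sites with a peak in at least 2 libraries, named by gene, with 1 symbol for each library that had a peak and the number of siCDK12 libraries with a peak at the right. Symbols of the 2 siCtrl libraries coincide at SERPINA1, UPF1 and SERPINA6. At ADAMTSL5, CAP2, CHPT1 and HSPB8 the siCDK12 pileups lie at 21 or below and the siCtrl pileups at 34 or above.

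Of the 22 promoter sites with a peak in both siCtrl libraries, 1 (4.55%) was bound in all 4 libraries. Of all sites with a peak in both siCtrl libraries it was 66 of 667 (9.90%). The promoter site was that of ADAMTSL5, which encodes a secreted ADAMTS-like matrix protein (ENSG00000185761). It spans chr19:1513129-1513569, with its summit 338 bp inside the gene-level start and upstream of the canonical transcript. Its pileup in siCtrl was 56 (replicate 2) and 34 (replicate 3), and in siCDK12 it was 14 (replicate 3) and 12 (replicate 4). The ratio, siCDK12 over siCtrl, was 0.289, with no overlap of the conditions (two-sided exact permutation p = 0.333). This ratio rests on the ADAMTSL5 site alone, and the pileups are not scaled between libraries. It was 0.305 over 3 sites within 2 kb of a gene start, and 0.378 over 5 sites with the start of any transcript. Whether the 65 sites in all 4 libraries away from promoters fell alike was not tested. The fold was 26.4 and 9.26 against 3.08 and 4.43. Among the deposited peaks of its library it ranked 32 and 106 with siCtrl, and 4778 and 1528 with siCDK12. In siCDK12 replicate 3 it passed the q-value threshold only narrowly, with a −log10 q of 1.32.

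In 4 other promoters a peak remained in 1 siCDK12 library, and 3 of them are described. CAP2, an actin-regulating cyclase-associated protein, had its site in intron 1 at +370 bp, with pileups of 69 and 43 in the siCtrl libraries and 13 in siCDK12 replicate 4. CHPT1, a choline phosphotransferase of phosphatidylcholine synthesis, had its site in UTR exon 1 at +767 bp, with 48 and 53 against 17 in siCDK12 replicate 4. HSPB8, a small heat shock protein that is induced by estrogen, had its site at -170 bp, with 62 and 50 against 21 in siCDK12 replicate 3. In each of the 3 the siCDK12 peak was the lowest and no other siCDK12 library had one. The fold went the same way, from 24.8 and 15.1 to 6.35 at CAP2, from 12.8 and 16.9 to 4.85 at CHPT1, and from 9.74 and 13.5 to 3.77 at HSPB8.

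The 17 lost promoter sites included several of the strongest in the siCtrl libraries. Their pileup ran from 14 to 61 in siCtrl replicate 2 (median 26) and from 10 to 58 in siCtrl replicate 3 (median 26). Their fold ran from 3.23 to 23.2 (median 7.89) and from 3.38 to 14.5 (median 5.50). A fold over 5 was reached in both libraries by 10 of the 17, a −log10 q of at least 5 by 11, and a pileup of 20 or more in both by 11. Only 1 of the 17 had any siCDK12 peak among those with a q-value above 0.05. The deposited lists reach down to a p-value of 0.001, so the other 16 had no peak at that limit either.

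Of the 4 listed estrogen-induced genes with a promoter site in both siCtrl libraries, 3 had a lost site. This share is near the lost share of all promoter sites in both siCtrl libraries (77.3%) and of all sites in both (68.2%). PDZK1, a PDZ-domain scaffold of membrane transporters, had its site at chr1:145708196-145708500, 220 bp upstream of its start, with pileups of 61 and 43 in siCtrl replicates 2 and 3. ABCA3, a lipid transporter of the ABC family, had a site 960 bp upstream (chr16:2341540-2341808), with 30 and 22. SERPINA1, which encodes alpha-1-antitrypsin, had a site 178 bp upstream (chr14:94390749-94390989), with 25 in each. Folds were 13.4 and 5.09 at PDZK1, 8.30 and 5.57 at ABCA3, and 6.80 and 3.38 at SERPINA1. At PDZK1 and SERPINA1 the 2 siCtrl libraries differed in fold more than in pileup, and the local background, relative to that of the whole library, was 3.61 and 6.59 times at PDZK1 and 2.80 and 5.77 times at SERPINA1.

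The lost sites with an element included the 2 highest by mean percentile, RPS6KL1 and MANEAL. RPS6KL1, a ribosomal S6 kinase-like gene, was bound in intron 1 at +741 bp (chr14:74922438-74922679), with pileups of 49 and 58 and folds of 13.5 and 14.5. MANEAL, an endomannosidase-like gene and the one with the perfect element, was bound at -382 bp (chr1:37793329-37793602), with pileups of 52 and 32 and folds of 23.2 and 13.6. BRI3BP, a membrane protein that binds BRI3, was bound in intron 1 at +411 bp (chr12:124993902-124994174), with pileups of 23 and 27. These 3 ranked within the strongest 251 peaks of either siCtrl library. CFAP99, a cilia- and flagella-associated protein, was bound in intron 1 at +538 bp (chr4:2419379-2419697), within 1 kb of the start of ZFYVE28 as well, with pileups of 24 and 29.

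Other lost promoters had no element within 1 mismatch. DECR1, a mitochondrial reductase of fatty acid oxidation, was bound in intron 1 at +248 bp with pileups of 39 and 38. OPRL1, the nociceptin receptor, was bound at +542 bp, also within 1 kb of RGS19, with 33 and 26. CCDC88C, a Dishevelled-binding protein, was bound at -402 bp with 44 and 35. Their pileups lay within the range of those with an element. CD22, a sialic acid-binding receptor of B cells, was bound 21 bp upstream of its start, the closest of the 24, with 27 and 28. THSD4, an ADAMTS-like matrix protein, was bound at -117 bp with 15 and 17, toward the lower end. Among the weakest lost sites were UPF1, the helicase of nonsense-mediated decay (15 and 15), FST, which encodes the activin antagonist follistatin (18 and 10), and SERPINA6, which encodes corticosteroid-binding globulin (14 and 14). UPF1, FST and SERPINA6 fall outside the naming rule and were named after their values were seen.

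The remaining recurrent sites, TBX4 and STMN3, had a peak in siCtrl replicate 2 and siCDK12 replicate 3 and differed in kind. TBX4, a T-box developmental regulator, had pileups of 55 and 61 but folds of only 2.11 and 2.21. STMN3, a stathmin of neurons, had pileups of 48 and 58 and folds of 1.91 and 3.51, at a site also within 1 kb of the start of RTEL1. Around TBX4 the local background was 25.3 and 22 times the library's own, and around STMN3 it was 24.4 and 12.8 times. STMN3 was the strongest promoter site in siCDK12 replicate 3 (−log10 q of 10.2, rank 31), and CD160 came next with 3.33. The part of the raised background in these peaks was not tested. Among all promoter peaks, background raised more than 3 times was found at 13 of 82 and 7 of 49 with siCtrl and at 4 of 30 and 1 of 30 with siCDK12. The mean difference was -6.74 percentage points (two-sided exact permutation p = 0.333), and it was -1.74 without siCDK12 replicate 4 and -11.7 without siCDK12 replicate 3.

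Within the siCtrl libraries, promoter sites with a peak in both had a higher median fold than other such sites. The 22 promoter sites had a median fold of 8.50 (siCtrl replicate 2) and 5.60 (siCtrl replicate 3), and that of the 645 other sites was 5.67 and 4.69. The median pileups lay closer, at 28.5 and 27.5 at promoters and 30 and 28 elsewhere. A raised local background accompanied fewer of the promoter sites, at 27.3% and 22.7%, than of the other sites, at 46.2% and 49.0%.

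Sites in 1 library were mostly weak in each of the 4 libraries. Their median pileup was 9 (n = 58) and 10 (n = 27) in siCtrl replicates 2 and 3, and 10 (n = 25) and 9 (n = 27) for siCDK12 replicates 3 and 4. Their median fold lay between 4.02 and 4.27 in the 4 libraries. The strongest were in siCtrl replicate 2, at the promoter of NAB2, a corepressor of EGR proteins (fold 8.69, −log10 q 14.1), and in the coding sequence of USP31, a ubiquitin-specific protease (fold 6.18, −log10 q 11.5), both named after their values were seen. The strongest of siCDK12 replicate 4 was SYCE1L, with a fold of 5.11 and a −log10 q of 3.44, and that of siCDK12 replicate 3 was CD160, with 4.63 and 3.33. None of the 137 had an overlapping peak with a q-value above 0.05 in another library. The share of promoter sites found in the library alone was 70.7% and 55.1% with siCtrl and 83.3% and 90.0% with siCDK12, and that of the other sites was 91.5%, 83.1%, 88.5% and 90.3% in the same order. By these values promoter sites were shared with another library more often than other sites in both siCtrl libraries, with the smallest gap in siCDK12 replicate 4.

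The sites lay on either side of the gene starts. Of the 161, 80 were upstream and 81 were at or downstream of the start, 54 were within 250 bp and 87 within 500 bp, and the median distance was 434 bp. By the canonical transcript, 94 were upstream, 14 in a UTR exon, 17 in a coding exon and 36 in an intron. The 24 recurrent sites had a median distance of 392 bp, with 12 upstream and 12 downstream. Within 500 bp were 15 of the 24 and 72 of the 137 sites in 1 library. Among the sites in both siCtrl libraries, those just inside the 1 kb limit were ABCA3 at 960 bp and UPF1 at 882 bp. Just outside were ADORA1, the adenosine A1 receptor, at 1053 bp, the cochaperone FKBP4 at 1112 bp, KRT13, a keratin, at 1165 bp and FOXK1 at 1314 bp. ADORA1 had a peak in all 4 libraries, with folds of 10.7, 8.71, 4.74 and 6.04, and the other 3 had one in both siCtrl libraries only.

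**Figure D4:**
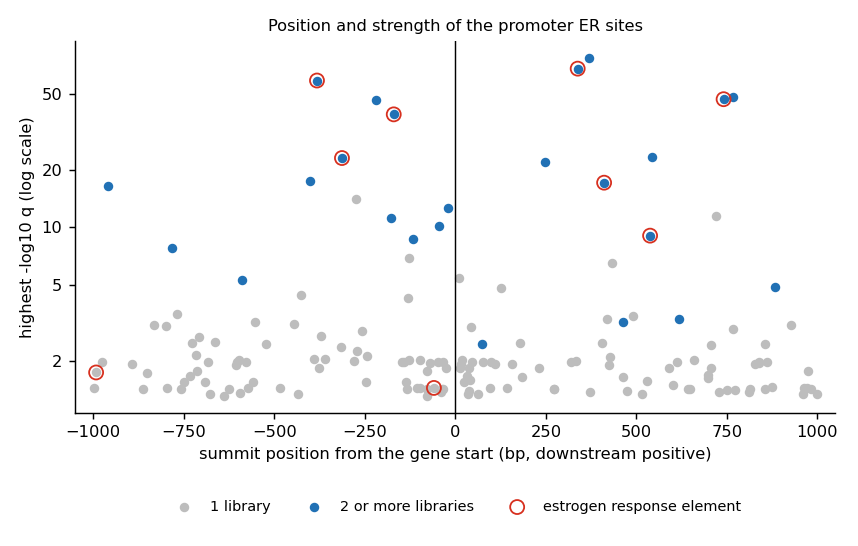
Position of the summit from the gene start in bp (downstream positive) against the highest −log10 q of the site over the libraries (log axis), for the 161 promoter sites. Colours separate sites in 1 library from those in 2 or more, and rings mark the 9 sites with an estrogen response element. Strong and recurrent sites occur across the whole window on both sides of the start.

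The estrogen response element was more frequent in the recurrent promoter sites than around gene starts in general. Within 100 bp of the summit it was present, with at most 1 mismatch, in 7 of the 22 sites in both siCtrl libraries (31.8%, interval 13.9 to 54.9), in 1.46% of the 137 sites in 1 library, and in 0.461% of the windows of the same length around all 19970 coding gene starts. The same share of sites away from promoters in both siCtrl libraries was 26.0%. With up to 2 mismatches it was present in 18 of the 22 (81.8%), in 54.9% of those other sites, in 13.9% of the promoter sites in 1 library and in 6.95% of gene starts. The remaining elements were at AOAH and CBY2, each with a weak peak in siCtrl replicate 2 alone (folds of 4.00 and 3.75). The elements lay between -32 and 89 bp from the summits.

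By library, an element was present at 9 of 82 and 7 of 49 promoter peaks with siCtrl (11% and 14.3%) and at 2 of 30 and 1 of 30 with siCDK12 (6.67% and 3.33%). The difference was -7.63 percentage points, with no overlap (two-sided exact permutation p = 0.333). Those 3 peaks were ADAMTSL5 in both siCDK12 libraries and HSPB8 in siCDK12 replicate 3. None of the 52 promoter sites with a peak in 1 siCDK12 library alone held an element, which allows up to 6.85%. Away from promoters the share with an element was also higher with siCtrl, at 2.95% and 4.57% against 1.61% and 1.17%.

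Other motifs were searched by their letters on both strands. AGGTCA, the receptor's single arm, which is contained in some of the elements, was present in 40.9% of the 22 sites in both siCtrl libraries, 16.1% of those in 1 library, 51.2% of the other sites in both siCtrl libraries and 8.42% of gene starts. The forkhead motif TGTTTNC was present in 0 of the 22, which allows up to 15.4%, and in 16.1% of the promoter sites in 1 library, while 13.3% of the other sites in both siCtrl libraries and 9.41% of gene starts had it. The GC box GGGCGG was present in 36.4% of the 22, 16.1% of those in 1 library, 10.1% of the other sites in both siCtrl libraries and 46.9% of gene starts. The AP-1 motif TGANTCA was present in 9.09%, 7.30%, 7.91% and 3.91% of the same groups, CCAAT in 13.6%, 25.5%, 19.1% and 26.0%, and the TATA box TATAAA in 0%, 8.03%, 6.36% and 7.11%. The ETS motif CCGGAAG was present in 0%, 2.19%, 0.620% and 10.2%. The CRE motif TGACGTCA was present in 0%, 0%, 0% and 1.87%. For the TATA box, ETS and CRE motifs too, 0 of the 22 sites allows up to 15.4%, which is above their shares at gene starts. A match in these windows is a description of letters and not of a bound factor.

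**Figure D5:**
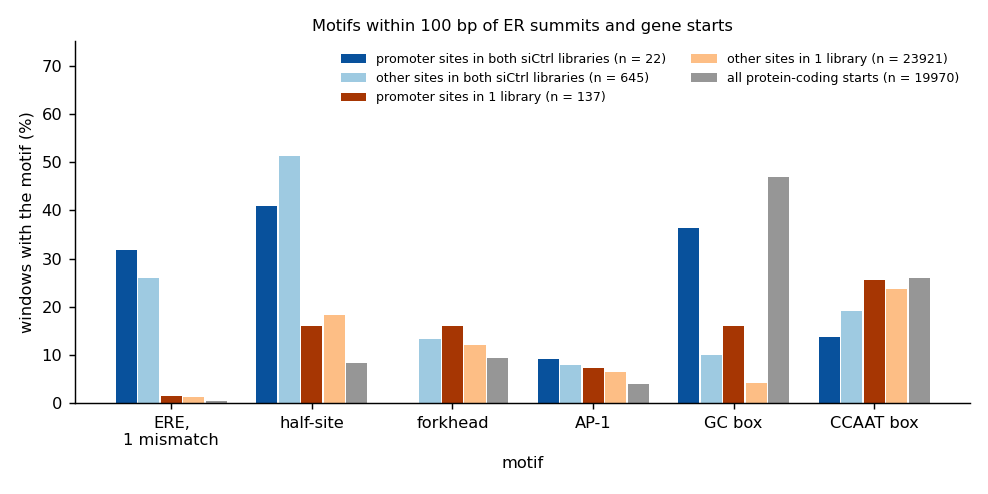
Share of windows reaching 100 bp to either side, in percent, that hold each motif, for promoter and other ER sites in both siCtrl libraries, promoter and other ER sites in 1 library, and all protein-coding starts (ERE, estrogen response element; half-site, AGGTCA). The element and its arm are raised in sites of both siCtrl libraries at promoters and elsewhere, and the GC box is more frequent at promoter sites than at the other ER sites but less frequent than at all protein-coding starts. Windows of ER sites are centred on the summit and those of gene starts on the start.

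Base composition followed the same split. The median GC content around the summit was 60.4% for the 22 sites in both siCtrl libraries, 53.2% for promoter sites in 1 library, 52.7% for other sites in both siCtrl libraries and 63.2% for gene starts. The ratio of observed to expected CpG was 0.434, 0.305, 0.216 and 0.749. Windows at the promoter sites were thus lower in CpG than windows at gene starts at the median. The gene start windows were centred on the start. The summits lay a median of 392 bp from it for the 22 sites and 464 bp for the promoter sites in 1 library. The part of this distance in base composition and motif shares was not tested. CAP2 (GC 82.6%), CHPT1 (80.6%), BRI3BP (79.6%) and ADAMTSL5 (79.1%) were the most GC-rich of the recurrent sites. Between conditions the median GC content of promoter peaks was 54.0% and 56.7% with siCtrl and 53.5% and 54.7% with siCDK12. These overlap (difference -1.24 percentage points, two-sided exact permutation p = 0.667).

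Of 8 gene lists, that of estrogen-induced genes held the most promoter sites. Of 54 estrogen-induced genes 5 had a promoter site (9.26%), namely ABCA3, HSPB8, KRT13, PDZK1 and SERPINA1, and of all protein-coding genes 0.832% did. Of these 5, 4 were bound in both siCtrl libraries and 1, HSPB8, had a siCDK12 peak. The keratin gene KRT13 had a weak site at -279 bp in siCtrl replicate 2 alone (fold 3.75), beside its site outside the limit. No promoter site was found at any of the 30 luminal transcription factors and ER cofactors, 32 transcriptional kinases and elongation factors, 33 genes of homologous recombination and the DNA damage response, 35 cell cycle genes, 31 immediate early genes or 70 replication-dependent histone genes. Lists of 30 to 70 genes are too short to show a share below the 0.832% of all protein-coding genes. Of 80 ribosomal protein genes 1, RPL10L, had a site, in siCtrl replicate 3.

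Of 11 genes taken from the study's text or its supplementary tables, promoter sites within 1 kb were found at ABCA3 and SERPINA1 only. The nearest ER site of any library lay 1112 bp from the start of FKBP4, 5399 bp from that of IGFBP4, an insulin-like growth factor-binding protein, and 6183 bp from that of ASB13. It lay 13305 bp from that of RARA, the retinoic acid receptor alpha, and 16394 bp from that of GREB1, a coactivator of ER. It lay 60403 bp from that of NRIP1, a corepressor of nuclear receptors. The nearest site to the gene of ER itself, ESR1, was 45948 bp from its start, that to CDK12 was 73619 bp away and that to MED1 was 63405 bp away. With a peak in both siCtrl libraries, the nearest site lay 1593856 bp from ESR1, 860999 bp from CDK12 and 871213 bp from MED1. For the other genes named here the nearest site itself had a peak in both siCtrl libraries. Other starts of these genes were not used for these distances.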

How the data were processed

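ER was immunoprecipitated from cross-linked LY2 chromatin, and the authors filtered reads, aligned them to GRCh38 with BWA and called peaks in each library with MACS2. Whether input DNA served as the control is not given in the sources used here. The study left out a divergent replicate of each condition. Input libraries (2 a condition) were not analysed here. Each deposited peak carries a fold (ratio) over the local background. The authors' lists also carry a −log10 p, a −log10 q and a score equal to the −log10 p multiplied by 10 and truncated. The lists reach a p-value of 0.001, and 20.4% to 28.0% of their peaks had q above 0.05 and were set aside. Peak numbers before this were 15149, 6913, 6653 and 7229 (siCtrl replicates 2 and 3, siCDK12 replicates 3 and 4).

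From these lists, with Python 3.11.15, pandas 2.3.3, SciPy 1.17.1 and pysam 0.24.0, peaks on chromosomes 1 to 22 and X were merged, and the summit of the peak with the highest −log10 q was compared with gene-level starts of GENCODE release 44. No peak ran beyond the reference. Pileup and local background were recovered by solving the fold and p-value of each peak together, and at least 99.97% of peaks gave a whole pileup. The read-count test of the study (DiffBind with DESeq2) needs reads and was not repeated. Scripts were tested on simulated data. Genes were named by rule: sites in all libraries, the 12 lost sites and 8 gained sites that ranked highest by mean percentile, the 3 strongest of each library, up to 10 with an element, gene list members in at least 2 libraries, and 11 genes from the study's text or tables. Of the recurrent sites, 3 that count in all totals are not reported here by name. Members and lists were chosen with earlier results of these data known. Alternatives were other thresholds, equal peak numbers, other overlaps, other promoter definitions and leaving out each library.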

Additional observations from a re-analysis of the deposited data

How the results depend on the processing

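Of 139 alternative values of the 10 results, 2 changed direction, and sizes varied widely. The ratio of promoter site numbers ranged from 0.0256 to 0.629, the difference in promoter share from -2.70 to -0.0837 percentage points, that in percentile from -25.3 to -3.81 and that in the share with an element from -28.2 to -1.63. The number of lost promoter sites, 17, was 9 within 500 bp of the start, 37 with the start of any transcript, and 19 to 75 when a library was left out, since fewer libraries then had to meet the definition. The number of gained sites, 0, was 2 with the start of any transcript and 0 to 27 when a library was left out. The lost share of promoter sites in both siCtrl libraries was 77.3%. At a −log10 q of at least 5 it was 100% (15 of 15), where that of the other sites was 78.4%. At a fold of at least 5 it was 92.9% (13 of 14) against 77.9%. With the start of any transcript it lay below that of the other sites, at 62.7% against 68.8%. The order was the same without siCtrl replicate 2 (89.8% against 92.1%) and without siCtrl replicate 3 (91.5% against 95.2%). In the remaining settings the promoter share was the higher. The difference in raised local background turned to 1.43 percentage points at a −log10 q of at least 3 (6 and 4 siCDK12 peaks), and that in GC content ran from -2.61 to 0.124 when a library was left out, with the change of sign without siCtrl replicate 3. The cause of either turn was not tested. No paired analysis was possible because siCtrl and siCDK12 have a single replicate number in common. Read depth is unknown, so a missing peak does not show that ER was absent, and the exact permutation test of 2 against 2 libraries cannot pass a threshold of 0.05.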
